A study of Homo sapiens with 72 samples.

Results

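The genes described here are 9 members of the Polycomb group, measured in PEO1 cells, an established line of high-grade serous ovarian carcinoma with a defective BRCA2 gene. The 9 are CBX2, CBX6, CBX7, CBX8, BMI1, RING1, RNF2, EZH2 and SUZ12. All 9 were among the 20110 genes that passed the filter on low counts, out of 54878 named genes in the files. CBX2 was chosen by its fold change between rucaparib-treated and Vehicle cells at 2 h in these same libraries, so that contrast is given below as values without a test, for CBX2 and for every other member.

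Polycomb proteins keep developmental genes silent through complexes that modify histones. Polycomb repressive complex 2 (PRC2) methylates histone H3 at lysine 27 through EZH2 or EZH1, held together by SUZ12 and EED. Polycomb repressive complex 1 (PRC1) places ubiquitin on histone H2A through RING1 or RNF2, which pair with a PCGF protein such as BMI1, and its CBX subunits read the PRC2 mark with a chromodomain. A canonical PRC1 particle carries a single CBX protein, and the choice among CBX2, CBX6, CBX7, CBX8 and their relatives varies with cell type.

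Rucaparib is a PARP inhibitor that fluoresces, so that treated cells can be sorted by the drug they hold. Cells received 8.5 µM rucaparib or Vehicle (the solvent DMSO) for 2 h or 24 h, and the treated cells were taken whole (RucTotal) or sorted into the 20% with the highest (RucHigh) and the 20% with the lowest (RucLow) drug fluorescence. RucHigh and RucLow cells were detached and passed through a sorter, whereas RucTotal and Vehicle cells were scraped into lysis buffer, so handling and gate cannot be told apart when sorted and unsorted cells are compared. Each of the 8 groups of gate, treatment and time held 3 replicates of 3 libraries each, and the 3 libraries of a replicate were summed, giving 24 samples. All groups came from this single line. In bulk RNA, fewer cells expressing a gene and less RNA per cell cannot be told apart.

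The 72 libraries held 17391033 to 38899905 estimated reads. All 7 markers of serous ovarian epithelium were present, for example PAX8 at 143 to 229 and WT1 at 28.3 to 42.9 CPM (estimated reads scaled to the library's effective size by TMM) over the 24 samples. Of the markers of other cell types, 2 of 3 for leukocytes, 2 of 3 for endothelium and 3 of 4 for fibroblasts stayed under 1 CPM in every sample, PTPRC, PECAM1 and PDGFRA among them. CD14, CDH5 and COL1A1 were above that level, at up to 6.5, 26.2 and 32.8 CPM. The mean length of the transcripts that reads were assigned to differed between samples, from 2711 bases in RucTotal 24 h replicate 2 to 3226 bases in Vehicle 24 h replicate 3, and some members moved with it, as given below.

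CBX2 was one of the least abundant members. In TPM, a level scaled by transcript length and library, over the 24 samples, EZH2 had the highest level at 41.02 ± 8.44 (SD), followed by BMI1 at 28.8 ± 7.2, SUZ12 at 23.9 ± 8.2, RING1 at 14.1 ± 2.4, CBX8 at 9.17 ± 1.61 and CBX6 at 7.12 ± 0.98. RNF2, CBX2 and CBX7 lay lowest, at 5.38 ± 1.98, 2.14 ± 0.39 and 1.38 ± 0.22 TPM. RING1 and RNF2 encode alternative catalytic subunits of PRC1, and RING1, at 10.1 to 20.3 TPM, lay above RNF2, at 2.65 to 9.31 TPM, without overlap. Neighbours among the 9 overlapped in their ranges over samples, and CBX2, at 1.58 to 2.74 TPM, overlapped with CBX7 and RNF2 and lay below the other 6.

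**Figure D1:**
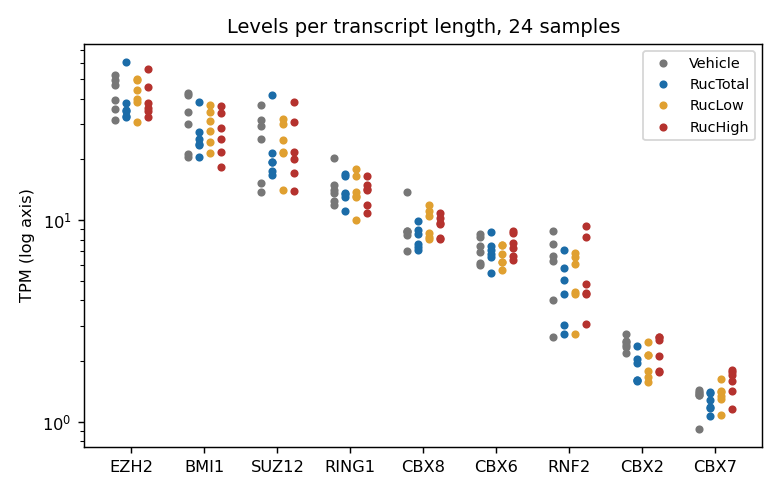
Level of each member in TPM (log axis) in the 24 samples, ordered by mean; each point is 1 summed sample, coloured by treatment and gate, with both times together. EZH2 lies highest and CBX7 lowest, and CBX2 averages 2.14 TPM.

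The reads of CBX2 came almost entirely from the full-length transcript CBX2-202, which is 4628 bases long and took 98.0% of CBX2 reads over all libraries, between 97.4% and 98.8% in every group. CBX2 lies on chromosome 17 of GRCh38 at 79778132 to 79787983 on the plus strand, 4148 bases from CBX8. CBX6 and CBX7 lie on chromosome 22, and SUZ12 is on another part of chromosome 17. For RING1, which lies in the major histocompatibility region of chromosome 6 at 33208495 to 33212722, reads were assigned to copies on alternate versions of that region, 78.7% to the first and 20.6% to the second, and were summed to 1 value. BMI1 shares exons with the COMMD3-BMI1 readthrough gene and SUZ12 has a near-identical pseudogene, so their estimated counts are less certain than those of the other members.

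CBX2 was lowest in the rucaparib-treated groups at 2 h, and at 24 h every treated group overlapped with Vehicle. In Vehicle cells at 2 h the 3 replicates gave 18.1, 15.1 and 13.3 CPM, and in RucTotal cells 9.01, 9.77 and 9.71. RucLow cells at 2 h gave 8.997, 10.5 and 10.7 CPM, and RucHigh cells gave 10.9, 10.2 and 10.5. All 9 treated samples thus lay below all 3 Vehicle samples, and the treated groups overlapped one another. At 24 h, Vehicle cells gave 12.8, 13.8 and 14.99 CPM and RucTotal cells gave 14.4, 12.99 and 13.4. In sorted cells at 24 h, RucLow gave 11.6, 12.2 and 12.95 CPM and RucHigh gave 13.2, 13.7 and 15.9. No treated sample at 24 h was as low as any treated sample at 2 h. These values rest on 740 to 1425 estimated CBX2 reads per sample.

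**Figure D2:**
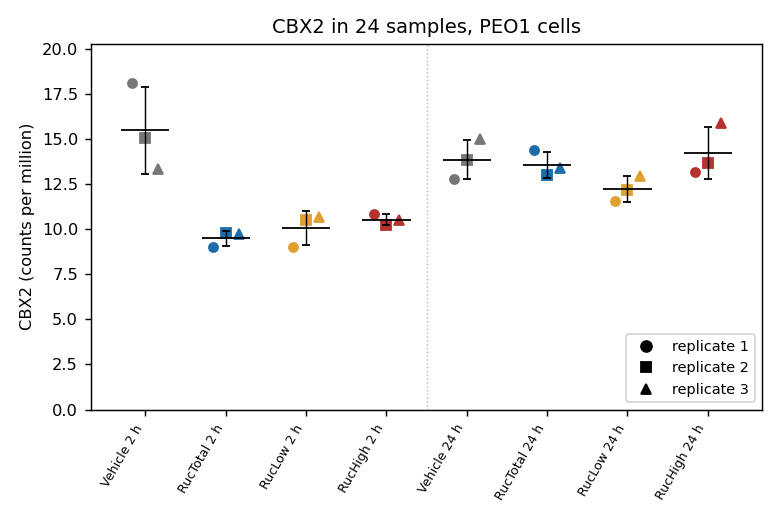
CBX2 in CPM (linear axis from 0) in the 8 groups of gate, treatment and time; points are replicates 1 to 3, bars are the mean and the SD. The 9 treated samples at 2 h sit between 8.997 and 10.9 CPM, under the Vehicle samples at 2 h and under every sample at 24 h.

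Ordered by group mean, CBX2 was highest in Vehicle at 2 h (15.5 ± 2.4 CPM, SD, n = 3), then in RucHigh at 24 h (14.2 ± 1.4), Vehicle at 24 h (13.9 ± 1.1) and RucTotal at 24 h (13.6 ± 0.71). RucLow at 24 h followed at 12.2 ± 0.70 CPM. The 2 h treated groups came last, with RucHigh at 10.5 ± 0.31, RucLow at 10.1 ± 0.93 and RucTotal at 9.50 ± 0.42 CPM. The gap to the next group exceeded the larger SD of the pair at 2 steps of this order, from RucTotal 24 h to RucLow 24 h and from RucLow 24 h to RucHigh 2 h. The other neighbours differed by less than their spread. On the TPM scale the 2 h treated groups were again the lowest, at 1.60 (RucTotal), 1.68 (RucLow) and 1.89 (RucHigh) against 2.45 in Vehicle.

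In the fit that singled CBX2 out, the log2 fold change of RucTotal over Vehicle at 2 h was -0.71 (SE 0.11), and 5 of 20110 genes (0.0249%) passed an adjusted p of 0.05. Replicate by replicate the log2 difference was -1.01, -0.62 and -0.46, so replicate 1 of Vehicle contributed the largest part. Without replicate 1 the fold change was -0.54, and with TPM in place of counts it was -0.40 on the log2(TPM + 1) scale, which understates the change of a low gene. RucLow and RucHigh at 2 h were compared with the same 3 Vehicle samples and so do not add independent support.

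In the 2 h contrast, by which CBX2 was chosen, the other members had log2 fold changes smaller in size. That choice fixes this order in part, so it does not set CBX2 apart. RING1 (-0.37), EZH2 (-0.12), CBX6 (-0.14) and SUZ12 (-0.07) had negative log2 fold changes of RucTotal over Vehicle, and RNF2 (0.26), CBX7 (0.04) and BMI1 (0.05) had positive ones. CBX8, the neighbour of CBX2, stood at -0.47 (SE 0.28), with 67.5, 31.1 and 22.97 CPM in Vehicle and 32.3, 26.98 and 28.2 in RucTotal. Replicate 1 of Vehicle stood apart and the other Vehicle replicates lay around the treated samples, and without replicate 1 the CBX8 value was 0.03. EED, a PRC2 core subunit, behaved likewise, at -0.53 with all replicates and at -0.11 without replicate 1. RING1 went from -0.37 to -0.16.

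At 24 h, no member passed the test between RucTotal and Vehicle in the fit without a replicate term. The question was whether rucaparib changed Polycomb transcripts after a day of exposure, in samples that the choice of CBX2 did not use. By edgeR's quasi-likelihood test, 0 of 9 members were called at an adjusted p of 0.05, against 3.36% of all genes, with 3 members under an unadjusted p of 0.05, and DESeq2 also called 0. CBX2 had a log2 fold change of -0.03 (SE 0.11, edgeR adjusted p = 0.90). EZH2 and CBX7 were as flat, at -0.02 (SE 0.14) and 0.01 (SE 0.13).

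Among the 9 members, RING1 and RNF2, the alternative catalytic subunits of PRC1, stood furthest from 0 at 24 h, in opposite directions. RING1 gave 33.8, 33.7 and 31.97 CPM in Vehicle and 55.5, 53.7 and 38.3 in RucTotal, a log2 fold change of 0.57 (SE 0.20, edgeR adjusted p = 0.099). RNF2 gave 8.36, 8.82 and 9.28 CPM in Vehicle and 4.003, 5.24 and 7.26 in RucTotal, a log2 fold change of -0.68 (SE 0.25, edgeR adjusted p = 0.12). For neither gene did the groups overlap, and in both the difference was largest in replicates 1 and 2 and smallest in replicate 3. The BMI1 groups did not overlap either, with log2 differences of -0.35, -0.17 and -0.08. With 3 samples per group such separation can arise by chance. The share of all genes without overlap was not computed, in this comparison or in the others. With the replicate number as a block, RING1 and CBX6 rose and RNF2 fell (edgeR adjusted p = 0.019, 0.045 and 0.0094), so that 3 of 9 members were called against 24.0% of all genes in that fit. Over all settings tried the adjusted p ran from 0.0193 to 0.747 for RING1, from 0.0452 to 0.948 for CBX6 and from 0.00939 to 0.747 for RNF2. Without replicate 3, RING1, RNF2 and SUZ12 passed (edgeR adjusted p = 0.047, 0.024 and 0.037). That fit called 2793 genes in total, against 675 in the fit with all replicates. The RucTotal samples left had mean transcript lengths of 2743 and 2711 bases, against 3118 and 3108 in Vehicle. EED, a core subunit outside the 9, passed only with the block, at 0.72 (SE 0.21, edgeR adjusted p = 0.022). CBX6, a PRC1 reader, had 74.8, 76.4 and 67.4 CPM in Vehicle and 106, 87.8 and 73.1 in RucTotal, with overlapping groups.

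Mean transcript length moved with these genes. It was 2743, 2711 and 3225 bases in the 3 RucTotal replicates at 24 h and 3118, 3108 and 3226 in Vehicle. The 3 samples with the highest RING1 and the lowest RNF2 were RucTotal 24 h replicates 1 and 2 and Vehicle 2 h replicate 1 (2724 bases, RING1 65.7 CPM, RNF2 4.46 CPM), all among the 4 samples of shortest mean length. RucTotal 2 h replicate 1, at 2757 bases, had RNF2 at 7.93 CPM. When length entered the fit as a covariate beside the block, the 24 h log2 fold changes shrank to 0.22 (SE 0.13) for RING1, 0.12 (SE 0.10) for CBX6 and -0.44 (SE 0.19) for RNF2, with edgeR adjusted p = 0.39, 0.53 and 0.20. The CBX2 fold change at 2 h was -0.69 in that fit, close to its value without the covariate. That contrast chose CBX2, so this value is descriptive and does not set CBX2 apart from the other members.

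**Figure D3:**
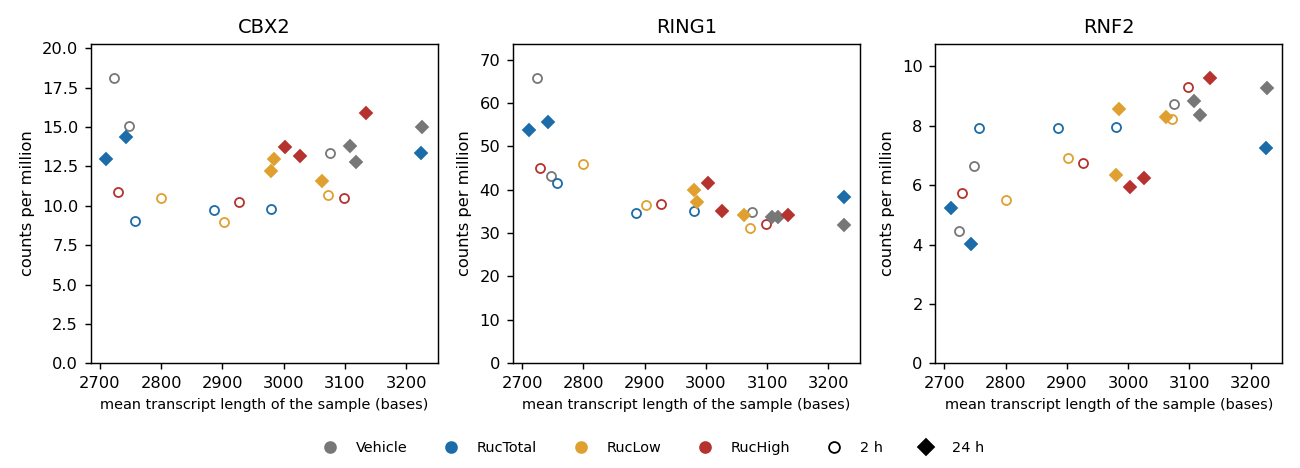
CBX2, RING1 and RNF2 in CPM against the mean transcript length of the sample in bases; each point is 1 of 24 samples, coloured by group, open at 2 h and filled at 24 h. RING1 is highest (up to 65.7 CPM) and RNF2 lowest (down to 4.003 CPM) among the samples of short mean length. The CBX2 points split by treatment at 2 h, the contrast by which CBX2 was chosen.

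Since RING1 and RNF2 are the members whose 24 h differences ran in opposite directions, the reference sequence around their transcription starts is shown, 250 bases before to 50 after (RefSeq, GRCh38.p14, plus strand), at chr6:33208250-33208549 for RING1 and chr1:185045308-185045607 for RNF2. Capitals mark matches, on either strand, to the GC box GGGCGG, the CCAAT box CCAAT, the E2F motifs TTTGGCGC and TTTCCCGC, and the YY1 motif AANATGGCG, of which overlapping matches were counted separately.
RING1: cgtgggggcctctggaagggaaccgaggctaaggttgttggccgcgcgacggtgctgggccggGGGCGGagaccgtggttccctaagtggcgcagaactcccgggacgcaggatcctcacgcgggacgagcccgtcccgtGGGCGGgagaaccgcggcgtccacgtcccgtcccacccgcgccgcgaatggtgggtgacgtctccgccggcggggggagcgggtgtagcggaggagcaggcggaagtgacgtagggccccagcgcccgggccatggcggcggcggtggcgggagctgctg
RNF2: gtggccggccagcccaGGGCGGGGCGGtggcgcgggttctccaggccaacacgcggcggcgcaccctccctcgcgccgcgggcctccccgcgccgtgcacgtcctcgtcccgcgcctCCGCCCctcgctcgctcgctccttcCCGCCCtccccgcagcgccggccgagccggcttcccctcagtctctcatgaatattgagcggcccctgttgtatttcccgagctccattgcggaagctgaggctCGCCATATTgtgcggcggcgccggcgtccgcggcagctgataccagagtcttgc

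Both promoters were rich in CG dinucleotides, with 41 each against a median of 14 over 35116 promoters of the same length. The other members with entries also lay above that median, with BMI1 entries at both ends, 36 and 65. RING1 held 2 GC boxes and RNF2 held 4. A GC box also occurred in every window of the other members with entries, and in 44.95% of all promoters. RNF2 also held 1 YY1 match, found in 3.19% of promoters. YY1 is the vertebrate relative of the fly factor that brings Polycomb to DNA. Of the 9 members, 7 had promoter entries, CBX2 and CBX8 not being among them, and EZH2 and SUZ12 each had 1 E2F match, a motif present in 2.27% of all promoters, while CCAAT occurred in 34.6%. A match of letters is a description of the window and not a bound site.

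No member passed the test between cells with the highest and the lowest rucaparib content. The comparison of RucHigh with RucLow holds treatment and sorting constant and asks whether transcripts follow drug content. The paper reports that RucHigh cells were also larger, richer in mitotic proteins and higher in lysosomal dye signal. The gates thus differ in more than drug content, and the part of these traits was not tested. At 2 h, 0 of 9 members were called by edgeR, against 0.00497% of all genes, and at 24 h again 0 of 9, against 0.109%. With so few genes called at all, 0 of 9 is not particular to these members. Without the block no member had an unadjusted p under 0.05 at either time, with it 1 member (CBX6, at 24 h) had, and DESeq2 called none. CBX2 differed by 0.06 (SE 0.11) at 2 h and by 0.22 (SE 0.11) at 24 h on the log2 scale, with an edgeR adjusted p of 1 at both. At 24 h the CBX2 difference was positive in 3 of 3 replicates (0.19, 0.17 and 0.29), and the 2 groups did not overlap. CBX6 and CBX7 showed differences of like size at 24 h, 0.20 (SE 0.13) and 0.19 (SE 0.13), and the CBX6 groups did not overlap either. The values of EZH2, SUZ12 and BMI1 were negative at both times, the furthest from 0 being -0.11 (SE 0.14, EZH2 at 24 h). RNF2 had 0.08 at 2 h and -0.09 at 24 h, and RING1 0.00 and -0.01.

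**Figure D4:**
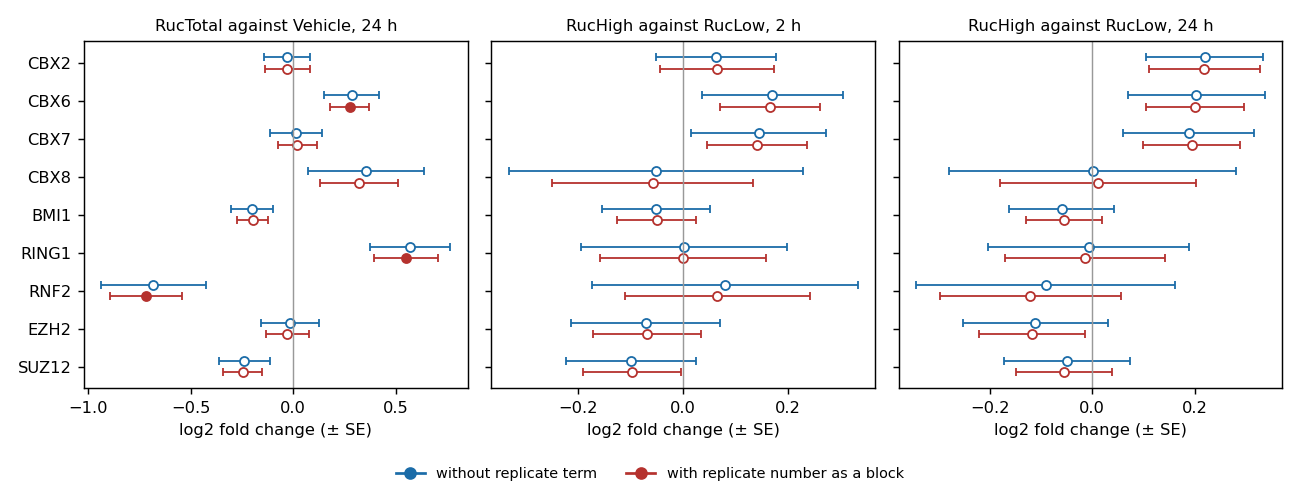
Log2 fold change (± SE) of the 9 members in 3 comparisons, without a replicate term (blue) and with the replicate number as a block (red); filled points passed an adjusted p of 0.05 and each panel has its own axis. Only CBX6, RING1 and RNF2 are filled, with the block, for RucTotal against Vehicle at 24 h, and none for RucHigh against RucLow.

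Between 2 h and 24 h, CBX2 was higher at 24 h in both sorted populations, which were not used to choose it, although not past the threshold by edgeR without a replicate term. In RucHigh cells the log2 difference of 24 h over 2 h was 0.44 (SE 0.11), positive in 3 of 3 replicates (0.28, 0.42 and 0.60) with groups that did not overlap. By edgeR 0 of 9 members were called there, against 0.224% of all genes, with 1 member, CBX2, under an unadjusted p of 0.05 and an adjusted p of 0.13. CBX2 passed by DESeq2 (adjusted p = 0.012), which called 319 genes in total, against 45 by edgeR. CBX2 also passed with the replicate number as a block (edgeR adjusted p = 0.039), when 1 of 9 members was called against 2.81% of all genes. Its adjusted p ran from 0.00364 to 1 over all settings, and 4 of 15 passed. In RucLow cells the difference was 0.28 (SE 0.11, edgeR adjusted p = 0.45), also positive in 3 of 3 replicates and without overlap. The CBX6 groups of RucLow cells did not overlap over time either. There 0 of 9 members were called by edgeR, against 0.278% of all genes, 1 had an unadjusted p under 0.05, and DESeq2 called 0. For RucTotal and Vehicle, whose 2 h samples chose CBX2, the corresponding values were 0.52 and -0.16, given without a test.

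In Vehicle cells alone, none of the other 8 members passed between 24 h and 2 h by edgeR, against 0.0249% of all genes, with 2 under an unadjusted p of 0.05 and 0 called by DESeq2. CBX8 gave 67.5, 31.1 and 22.97 CPM at 2 h and 23.8, 22.2 and 21.7 at 24 h, with overlapping groups. It was called only when the replicate number was a block, with a log2 difference of -0.75 (edgeR adjusted p = 0.034), as 1 of 8 members against 9.43% of all genes. The 2 h group is spread widely by its first replicate, without which the value was -0.30, and with transcript length as a covariate the value was -0.42 (edgeR adjusted p = 0.76). CBX8 is a PRC1 reader, and in sorted cells its difference over the same time was -0.38 (RucLow) and -0.33 (RucHigh), neither of which passed. In Vehicle the groups of RING1 (log2 differences of -0.96, -0.36 and -0.13) and of SUZ12 (0.22, 0.20 and 0.06) did not overlap over time. Neither gene was called there.

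The direct test of whether the rucaparib effect differed between 24 h and 2 h called 0 of the 8 members other than CBX2 by edgeR, against 0.139% of all genes, with 3 under an unadjusted p of 0.05 and 1, RING1, called by DESeq2. DESeq2 called 856 genes in total there, against 28 by edgeR. RING1 differed by 0.94 (SE 0.28, edgeR adjusted p = 0.12), CBX6 by 0.42 (SE 0.19, edgeR adjusted p = 0.22) and RNF2 by -0.94 (SE 0.36, edgeR adjusted p = 0.17). CBX8 differed by 0.83 (SE 0.40, edgeR adjusted p = 0.24). Without replicate 1 the values were 0.20 for CBX8, 0.65 for RING1, 0.19 for CBX6 and -0.58 for RNF2. RING1, CBX6 and RNF2, 3 of 8, were called with the replicate number as a block, against 18.1% of all genes, and none of the 3 passed once mean transcript length was a covariate as well. The value for CBX2, which the choice of gene fixes in part, was 0.68 (SE 0.16), and 0.41 without replicate 1.

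Sorted cells, as the mean of RucHigh and RucLow, were then compared with unsorted RucTotal cells. The share of reads from mitochondrial genes moved with this comparison, with a median over libraries of 2.70 to 3.29% in the sorted groups and of 0.463 to 0.947% in RucTotal, and its part in the differences below was not tested. At 2 h, 0 of the 8 members other than CBX2 were called by edgeR, against 2.41% of all genes, and none had an unadjusted p under 0.05 or was called by DESeq2. At 24 h, 0 of 9 were called by edgeR, against 9.48% of all genes, with 2 under an unadjusted p of 0.05 and 0 by DESeq2, and CBX2 differed by -0.04 (SE 0.10). With the replicate number as a block RNF2 was higher and CBX6 and RING1 lower in sorted cells at 24 h (edgeR adjusted p = 0.038, 0.036 and 0.041), 3 of 9 against 24.7% of all genes. This comparison shares the RucTotal samples with the drug comparison at 24 h, so the same 3 samples enter both. Among the other core subunits, EZH1, the alternative methyltransferase of PRC2, was higher in sorted cells at 24 h by 0.43 (SE 0.08, edgeR adjusted p = 0.006), at 34.8 ± 1.3 CPM in RucLow and 39.96 ± 1.29 in RucHigh against 27.8 ± 2.2 in RucTotal.

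EZH2 ranged from 65.2 to 92.4 CPM over the 24 samples, with group means between 72.8 and 82.1, and SUZ12 from 49.8 to 70.1 CPM, with group means between 54.1 and 65.3. BMI1, the PCGF partner of RING1 and RNF2, ranged from 33.8 to 47.4 CPM. CBX7, which is known as a repressor of the INK4 locus, ranged from 6.16 to 9.33 CPM. The highest CPM of a sample was 1.42 times the lowest for EZH2, 1.41 for SUZ12, 1.40 for BMI1 and 1.51 for CBX7. The corresponding ratio was 2.01 for CBX2, 2.10 for RING1, 2.40 for RNF2 and 3.11 for CBX8. Of the other PRC2 core subunits, EED had a ratio of 2.95 and EZH1 of 1.93. In TPM, which depends on the transcript lengths assigned in a sample, SUZ12 ranged more widely, from 13.7 to 41.9.

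**Figure D5:**
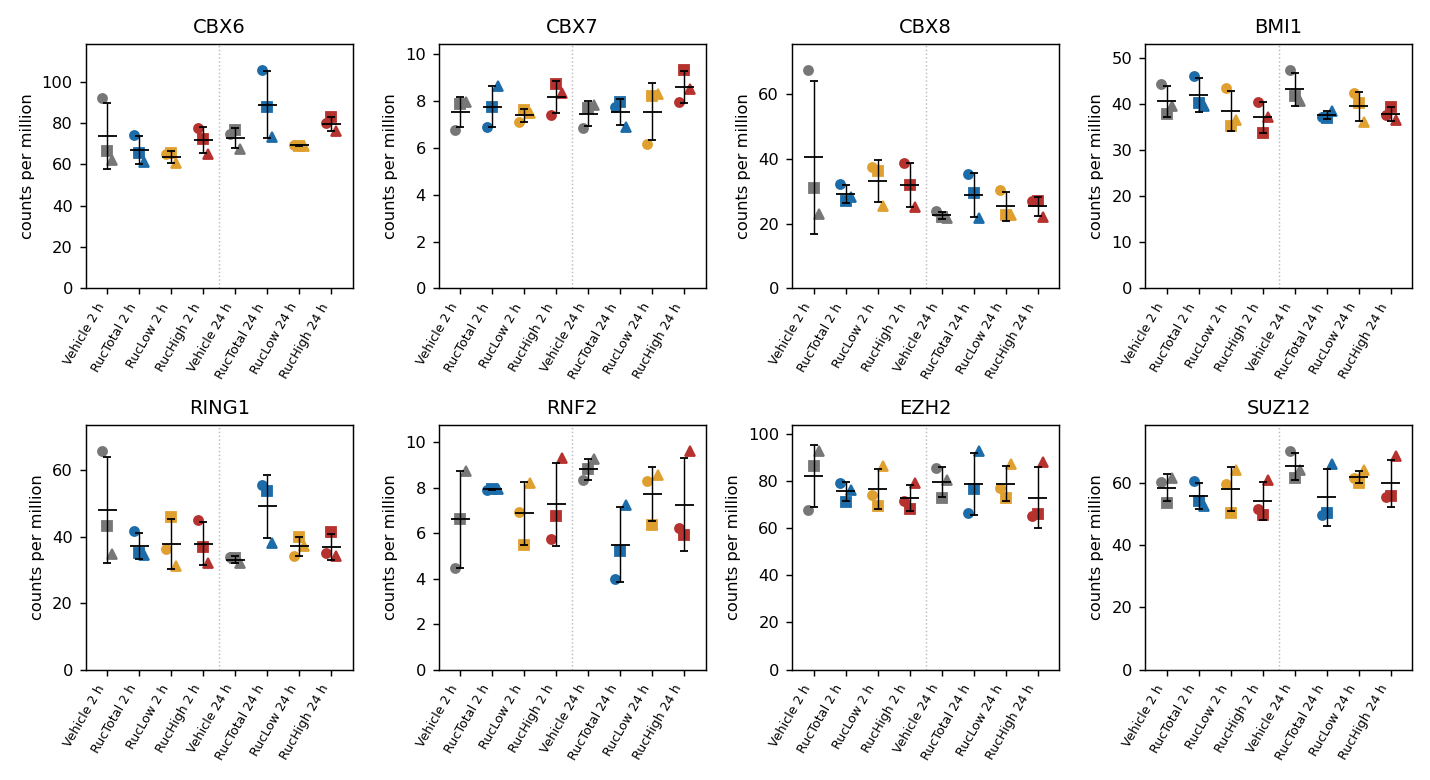
The other 8 members in CPM (linear axes from 0) in the same 8 groups, with replicates 1, 2 and 3 as circle, square and triangle and bars for the mean and SD. EZH2, SUZ12, BMI1 and CBX7 vary least, the highest sample being at most 1.51 times the lowest, while CBX8 and RING1 have their highest point in Vehicle 2 h replicate 1.

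Across the 24 samples, the genes whose log2 CPM was most like that of CBX2, among 10957 genes of at least 5 CPM, were ABHD15 (Pearson r = 0.87), EFNA4 (0.84), FOXF2 (0.82), PATZ1 (0.82) and ABHD16A (0.82). The least like were ENC1 (-0.85), NOG (-0.80) and PTRH2 (-0.76). The samples share replicates and groups, so these values are descriptive. They include the 2 h samples that chose CBX2, so the 2 h differences of the genes listed follow in part from the ranking. ABHD15 had 13.5 ± 2.0 CPM in Vehicle and 10.7 ± 0.47 in RucTotal at 2 h, and 12.8 ± 0.95 and 14.2 ± 1.0 at 24 h. ENC1 ran the other way, with 154 ± 39 CPM in Vehicle and 232 ± 15 in RucTotal at 2 h. NOG, an antagonist of BMP ligands, had a log2 fold change of 0.97 at 2 h. Of the other members, CBX6 was most like CBX2 (0.52) and RNF2 least (-0.21), and CBX8, its neighbour on the chromosome, had a value of -0.00.

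The wider Polycomb and trithorax lists held 68 genes, of which 66 were tested. In RucTotal against Vehicle at 24 h, 1 rose and 2 fell by edgeR, beside 3.36% of all genes, and the median log2 fold change was -0.14, beside 0.03 over all genes. With the replicate number as a block 5 rose and 11 fell, beside 24.0% of all genes. PHC2, a polymerising PRC1 subunit, rose by 0.43 (SE 0.09, edgeR adjusted p = 0.017), AEBP2, a PRC2 cofactor, fell by 0.45 (SE 0.12, adjusted p = 0.040), and MBTD1, a histone reader, fell by 0.70 (SE 0.15, adjusted p = 0.019). Mean transcript length also differed between RucTotal and Vehicle samples at 24 h, and its part in these values was not tested. Between sorted and unsorted cells at 24 h, 6 were higher and 2 lower, beside 9.48% of all genes, and with the block 18 were higher and 10 lower, beside 24.7%. OGT, the enzyme that adds N-acetylglucosamine to proteins and binds the PR-DUB complex, was the largest of these at 1.43 (SE 0.27, edgeR adjusted p = 0.0047). L3MBTL1 (0.94), KDM6B (0.78), MBD6 (0.71), MBTD1 (0.66) and EZH1 were higher as well, and PHC2 (-0.30) and PHF19 (-0.26) were lower. At 2 h KMT2B, a histone H3 lysine 4 methyltransferase, was the only one called, higher in sorted cells by 0.80 (SE 0.17, edgeR adjusted p = 0.020), and with the block 12 were called, beside 14.9% of all genes. RucHigh against RucLow called 0 of 66 at both times by edgeR, with and without the block, and by DESeq2. Under an unadjusted p of 0.05 there were 0 at both times by edgeR without the block, 1 at 2 h and 4 at 24 h with it, and 0 at 2 h and 1 at 24 h by DESeq2. The 3 comparisons over time and the difference of the rucaparib effect called 0 by edgeR, where 16 (Vehicle), 3 (RucLow), 7 (RucHigh) and 19 (difference) were under an unadjusted p of 0.05 and DESeq2 called 1, 1, 2 and 8. Among all genes DESeq2 called 204, 290, 319 and 856 there. With the block these 4 comparisons called 11, 2, 3 and 21, beside 9.43%, 2.51%, 2.81% and 18.1% of all genes.

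Over all 9 tested comparisons together, 1.78% of the results of all genes were called by edgeR without the block and 10.8% with it. DESeq2 called 8149 of these 180990 results. By list, the PRC1 catalytic and PCGF genes (8 tested) and the variant PRC1 genes (13 tested) had 0 calls by edgeR, with 12 and 15 results under an unadjusted p of 0.05 and 2 and 2 calls by DESeq2. With the block they had 14 calls (19.4% of the list's results) and 16 (13.7%). Canonical PRC1 (10 tested) and PRC2 accessory genes (7 of 8 tested) had 2 calls each, PRC2 core genes (6 tested) had 1, PR-DUB genes (9 of 10 tested) had 2, PhoRC genes (5 tested) had 3, and H3K27 demethylases with trithorax genes (8 tested) had 2. These calls were 1.85% (PRC2 core) to 6.67% (PhoRC) of the results of a list. With the block these 6 lists had 14, 11, 9, 15, 6 and 8 calls, in the same order, or 11.1% (demethylases and trithorax) to 18.5% (PR-DUB) of their results. In RucTotal against Vehicle at 24 h the list medians were -0.20 (PRC1 catalytic and PCGF), 0.05 (canonical PRC1), -0.04 (variant PRC1), -0.09 (PRC2 core), -0.19 (PRC2 accessory), -0.25 (PR-DUB), -0.26 (PhoRC) and -0.06 (demethylases and trithorax). All 9 tested PR-DUB genes had a negative value there, with the highest at -0.00 and the lowest at -0.62. How many of all genes had a negative value was not computed, and their median was 0.03. By edgeR 0 of the PR-DUB genes passed without the block, where all genes had 3.36%, and 3 with it, where all genes had 24.0%. The 3 were ASXL1 (-0.35, adjusted p = 0.012), ASXL2 (-0.68, adjusted p = 0.028) and MBD5 (-0.52, adjusted p = 0.010), which were chosen after their values were seen. With mean transcript length as a covariate beside the block, 1133 of all genes were called there, against 4820 with the block alone. The part of length in the values of the gene lists, HOX genes included, was not tested.

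HOX genes, the classic targets of Polycomb, were mostly low in PEO1 cells, with 29 of 39 tested and 19 of 39 at a mean of at least 1 CPM. They had 6 calls over the 9 comparisons by edgeR and 38 with the block, or 2.30% and 14.6% of their results, beside 1.78% and 10.8% for all genes. HOXB9 rose with rucaparib at 24 h by 1.02 (SE 0.19, adjusted p = 0.0070) and in RucLow cells between 2 h and 24 h by 1.02 (adjusted p = 0.020), and HOXC6 rose in RucHigh cells over the same time by 1.17 (adjusted p = 0.031). HOXB3, the most abundant of those called at 66.1 CPM, fell with rucaparib at 24 h by 0.54 (SE 0.14, adjusted p = 0.045) and was higher in sorted cells at 24 h by 0.77 (adjusted p = 0.0018), as was HOXA3 by 0.77 (adjusted p = 0.019). CDKN2A and CDKN2B, the INK4 genes that CBX7 and BMI1 are known to repress, reached at most 0.0383 and 0.0371 CPM in any sample and were not tested. The DNA replication genes (14 tested) had 6 calls, and 32 with the block, or 4.76% and 25.4% of their results beside the same shares for all genes. The 6 were all lower in sorted than in unsorted cells at 24 h, among them GINS2 (-0.67, adjusted p = 0.017), MCM2 (-0.30, adjusted p = 0.021) and MCM7 (-0.32, adjusted p = 0.021). Their median log2 difference was -0.31 in that comparison, beside 0.01 over all genes, while EZH2, which is known to follow proliferation, stood at -0.05 (SE 0.12).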

How the data were processed

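RNA of 72 libraries of PEO1 cells was sequenced (8 groups, 3 replicates of 3 libraries). The authors deposited Salmon tables with estimated counts and TPM per transcript; per the labels the build was GRCh38, and the submitters' processing notes name cutadapt 4.7, Salmon and DESeq2 1.44.0. Estimated counts were summed over transcripts by gene name (GENCODE 29, then HGNC names; 51256 of 257369 transcripts, holding 7.1 to 8.95% of reads, had no name and were left out of gene totals), summed over the 3 libraries of a replicate and rounded. Genes passing filterByExpr were tested with edgeR 4.0.16 (TMM, quasi-likelihood; R 4.3.3) in 1 fit over 8 groups, with Benjamini-Hochberg adjustment over 20110 genes at 0.05. DESeq2 1.42.0 and limma 3.58.1 served as alternatives, with other filters, scalings, length terms and left-out replicates. The code was tested on simulated data. None of the 72 pairs of libraries of the same replicate agreed within sampling noise. The study's reporting summary puts replicates of sorting experiments on different days, so replicate numbers were treated as pairing the samples. The reported fit had no replicate term, so its calls leave this pairing out. The fit with the replicate number as a block is given beside each result of a member whose call it changed. Deviations from group means correlated at a median of 0.29 between samples of the same number (lowest -0.06, 84 pairs) and -0.13 between others. Per the labels, column-purified RNA was poly(A)-selected and made into strand-specific libraries (NEBNext Ultra II Directional) that were run on a NextSeq instrument; the Salmon version and its strand setting are not given in the sources used here. P-values rest on the spread between the 3 replicates of a group, estimated over the 8 groups together. Mean transcript length is the read-weighted length of the transcripts in a sample. The members, the gene lists and the tests were chosen with earlier results of these data known. The text names the 9 members, EED and EZH1, of each other list up to 3 genes per direction and comparison with the smallest adjusted p under 0.05, and the 5 genes most and 3 least like CBX2. The values of 1 gene named by this rule are not reported here.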

Additional observations from a re-analysis of the deposited data

Results flagged for a closer look

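Among the 9 libraries of each group, 8 member values stood apart from the rest by Dixon's gap test, out of 72 sets of 9 libraries. For independent values, chance flags about 1 set in 20. Libraries of the same replicate and genes of the same library are not independent, so the flags cannot be set against that rate. The 8 values came from 3 libraries. One library of Vehicle 2 h replicate 1 had CBX6 at 120.9 CPM and RING1 at 111.6 CPM, above the 57.7 to 85.3 and 31.4 to 50.4 CPM of the other 8. One library of RucLow 2 h replicate 2, the one with the fewest reads (17391033) and a mean transcript length of 2325 bases, had CBX6 at 103.2 and RING1 at 83.6 CPM, above the others, and BMI1 at 16.4 and SUZ12 at 24.3 CPM, below the others (35.2 to 47.2 and 53.6 to 69.8 CPM). One library of RucHigh 2 h replicate 1 had CBX6 at 94.5 and CBX8 at 49.9 CPM. No CBX2 value stood apart.

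RING1 and CBX6 had lower values with rucaparib in 3 of 3 replicates at 2 h and higher values in 3 of 3 at 24 h. At 2 h the groups overlapped, with log2 differences of -0.66, -0.30 and -0.01 for RING1 and -0.31, -0.02 and -0.02 for CBX6. The largest was in replicate 1, whose Vehicle sample holds a library flagged above for both genes. The share of all genes with this pattern of signs was not computed. For RING1 and CBX6 the differences of the rucaparib effect were 0.94 and 0.42 on the log2 scale. They did not pass by edgeR without a replicate term and did with the replicate number as a block. Neither passed once mean transcript length was a covariate as well.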

How the results depend on the processing

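Members called under the alternatives were as follows, starting from 0 in every comparison. With the replicate number as a block (replicate block), 3 members were called for RucTotal against Vehicle at 24 h, 3 for sorted against unsorted cells at 24 h, 1 for Vehicle over time, 1 for RucHigh over time and 3 for the difference of the rucaparib effect; the block changed none of the other member counts. For RucHigh over time, DESeq2, limma-voom on 72 libraries, and the length covariate with the replicate block each called 1 (CBX2, adjusted p = 0.0123, 0.00364 and 0.0147), and for the difference of the rucaparib effect DESeq2 called 1. In the same order, these fits called 319, 411, 783 and 856 genes in total. Leaving out each replicate in turn gave 0 to 3 members for RucTotal against Vehicle at 24 h and 0 to 2 for the difference of the effect, the higher counts without replicate 3 (RING1 and RNF2 in both, SUZ12 in the first), and 0 elsewhere. Without replicate 3, these comparisons called 2793 and 3146 genes in total, against 675 and 28 as reported. The other alternatives (filters, size factors, effective length, only the groups compared, without the lowest-total libraries) called 0. CBX6 turned its direction with limma on log2(TPM + 1), to -0.0235 for RucTotal against Vehicle and 0.0145 for sorted against unsorted cells at 24 h. The cause was not tested. The number of genes called overall moved more. Over all settings it ran from 0 to 224 for RucTotal against Vehicle at 2 h (5 as reported), 3 to 4820 at 24 h (675), 0 to 154 for RucHigh against RucLow at 2 h (1), 0 to 235 at 24 h (22), 2 to 4787 for sorted against unsorted cells at 2 h (485), 5 to 4970 at 24 h (1907), 0 to 1897 for Vehicle over time (5), 0 to 1026 for RucLow (56), 0 to 783 for RucHigh (45) and 0 to 3636 for the difference of the effect (28), with the highest counts in fits with the block and the lowest for RucTotal against Vehicle and for sorting at 24 h without replicate 2. For CBX2 in RucHigh against RucLow at 24 h the adjusted p ran from 0.335 to 1 over all settings.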
